A study of Homo sapiens with 16 samples.

Results

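The CCND1 locus was described here by every listed peak that overlapped chromosome 11 from 69.30 to 69.70 Mb (hg19), a window of 0.4 Mb in band 11q13.3. The gene lies at 69.456 to 69.469 Mb, with bounds taken to the nearest kb, and is transcribed towards higher coordinates. Members were chosen by position alone, and 40 of the 114213 peaks and domains in 6 deposited lists qualified. In TC-32 these were 15 peaks of SMC1 and 6 domains of H3K27ac, and in TC-71 7 peaks of SMC1 and 12 domains of H3K27ac. No BORIS peak (0) was listed in either line.

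The lists come from chromatin immunoprecipitation with sequencing in TC-32 and TC-71, established Ewing sarcoma cell lines that both carry the EWSR1-FLI1 fusion. The labels place the phase of therapy at diagnosis for TC-32 and after chemotherapy for TC-71, and give no treatment of the cultures. Each line had 2 samples for BORIS, SMC1, H3K27ac and input, 16 samples in all, and the 2 samples of an antibody share 1 list called against input of the same line. No value below therefore has a replicate error, no test between lines was possible, and the read depth is unknown.

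CCND1 encodes cyclin D1, the regulatory subunit of the kinases CDK4 and CDK6, which phosphorylate RB1 and so open the way from G1 into S phase. Its transcription is driven by enhancers around the gene, and in Ewing sarcoma it is known as a gene with a large enhancer bound by EWSR1-FLI1. H3K27ac marks active promoters and enhancers. SMC1 belongs to the ring-shaped cohesin complex, which holds chromatin loops at their anchors. BORIS (CTCFL) is a germline paralog of the insulator protein CTCF. In the RefSeq gene order of GRCh38.p14 the nearest named neighbours of CCND1 are the long noncoding RNA gene LINC01488 before it and, after it, LTO1 and the growth factor genes FGF19, FGF4 and FGF3. Those coordinates are of another build, so no peak was assigned to a gene other than CCND1.

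Acetylation in the window was concentrated at CCND1 and in flanking stretches. It reached from 29.8 kb before the gene to 29.7 kb past it in TC-32, and from 42.0 kb before to 21.9 kb past it in TC-71. H3K27ac covered 47.3 kb (11.8%) of the window in TC-32 and 39.9 kb (9.99%) in TC-71. Over chromosomes 1 to 22 and X the covered share was 2.15% and 1.41%. Among 7573 consecutive windows of this size over those chromosomes, 146 (1.93%) had more acetylated sequence in TC-32 and 107 (1.41%) in TC-71. The medians over these windows were 4.03 kb and 1.935 kb.

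The domain over the gene was among the largest of each list. In TC-32 it ran from 69448685 to 69472771, starting 7.32 kb before CCND1 and ending 3.77 kb past it, so that the whole gene was covered. It was 24.1 kb wide with a fold enrichment over input of 9.80 and a −log10 q of 58.5; these and all folds and −log10 q given here are the authors' values for a peak. In TC-71 the corresponding domain ran from 69449327 to 69465895, starting 6.67 kb before the gene and ending 3.11 kb short of its end. It was 16.6 kb wide with a fold enrichment of 9.76 and a −log10 q of 47.7. The list medians for fold were 3.53 and 3.81, and for width 1.27 kb and 1.15 kb. By length times fold this domain was number 10 of 36355 in TC-32 and number 6 of 26334 in TC-71, and by −log10 q it was number 220 and number 185.

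**Figure D1:**
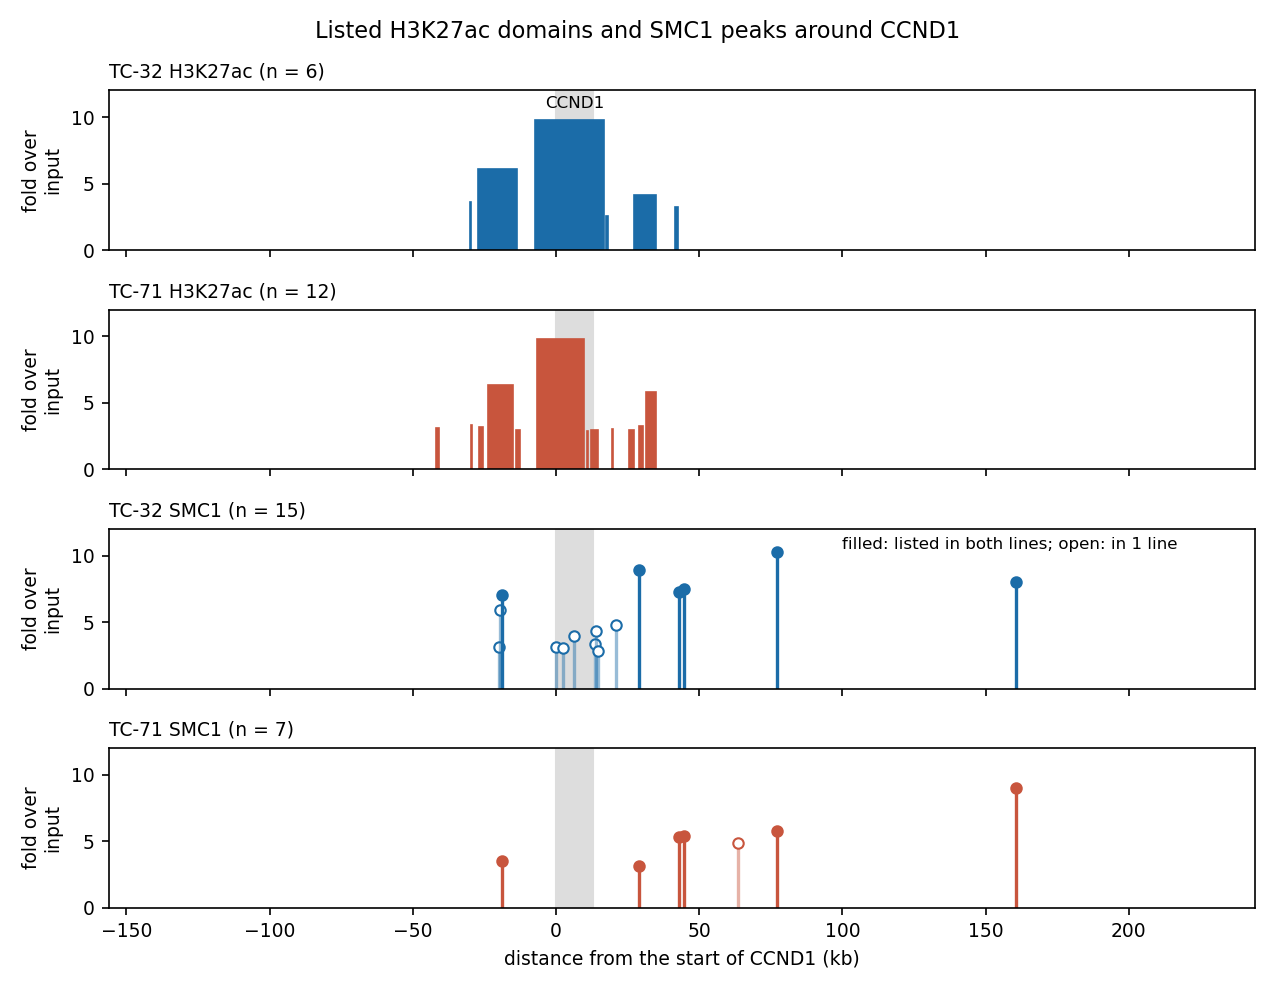
Deposited H3K27ac domains (bars, as wide as the domain) and SMC1 peaks (stems) in the window, placed by distance from the start of CCND1 in kb (horizontal axis) with the authors' fold enrichment over input (vertical axis). The grey band is the gene. The domain over CCND1 has the highest H3K27ac fold of the window in each line (9.80 and 9.76), and the 6 filled SMC1 sites are common to both lists.

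The 3′ end of the gene was where the lines differed most within CCND1 itself. TC-32 listed acetylation over 100% of the gene and TC-71 over 85.4%, all of it also covered in TC-32. Past its main domain TC-71 listed a 0.396 kb domain from 69466900 to 69467295 (fold 2.88) and a 2.65 kb domain from 69468195 to 69470848 (fold 2.95), the latter across the gene's end. Both had low ranks, at percentiles 20.6 and 29.2 of the TC-71 list, where the percentile is the share in percent of a list with an equal or lower −log10 q. The 1.90 kb of the gene that only TC-32 listed as acetylated lay in the gaps on either side of the 0.396 kb domain.

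A separate wide domain lay before the gene. In TC-32 it ran from 69428830 to 69442556, from 27.2 to 13.4 kb before CCND1, 13.7 kb wide with a fold of 6.12 and a −log10 q of 27.1. In TC-71 its counterpart ran from 69432297 to 69441131, from 23.7 to 14.9 kb before the gene, 8.84 kb wide with a fold of 6.36 and a −log10 q of 22.2. These ranked at percentile 89.0 in TC-32 and 87.7 in TC-71, the next highest after the gene's own domain among the domains of the window. The TC-71 domain lay wholly inside the TC-32 one and was flanked there by weaker domains of 1.59 kb (69429086 to 69430672, fold 3.16) and 1.57 kb (69441922 to 69443493, fold 2.95).

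A further acetylated stretch lay after the gene. In TC-32 it was a single domain from 69483225 to 69490792, starting 14.2 kb past the gene, 7.57 kb wide with a fold of 4.12. TC-71 listed 3 domains that overlapped it. They were 1.77 kb (69481559 to 69483326, fold 2.95), 1.51 kb (69484834 to 69486345, fold 3.27) and 3.44 kb (69487436 to 69490871, fold 5.80) wide. The first of these lay mostly before the TC-32 domain, which covered 5.77% of it. The last of these, at percentile 82.5, was one of the 3 TC-71 domains in the highest quartile of the list. The 9 other TC-71 domains of the window lay below the median of their list, down to percentile 18.3.

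Nearly all acetylated sequence of TC-71 in the window was also acetylated in TC-32. Both lines shared 35.7 kb. This made up 89.5% of the acetylated sequence of TC-71 and 75.6% of that of TC-32, against 65.1% and 42.5% over all chromosomes used. By domain, 10 of 12 in TC-71 overlapped a TC-32 domain, with 67.3% over the whole TC-71 list, and 4 of 6 in TC-32 overlapped a TC-71 domain, with 47.1% over the TC-32 list. The shared sequence before the gene came to 17.8 kb, that on the gene to 11.1 kb and that after it to 6.82 kb. After the gene the overlap was lowest, at 52.3% of the TC-32 sequence there. At these numbers of domains the exact (Clopper-Pearson) 95% intervals of the shares were 51.6 to 97.9% in TC-71 and 22.3 to 95.7% in TC-32. Both hold the value of the whole list. The domains are neighbours on the same stretch, and a single TC-32 domain overlapped up to 3 of TC-71. They are not independent draws, so no test was made.

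**Figure D2:**
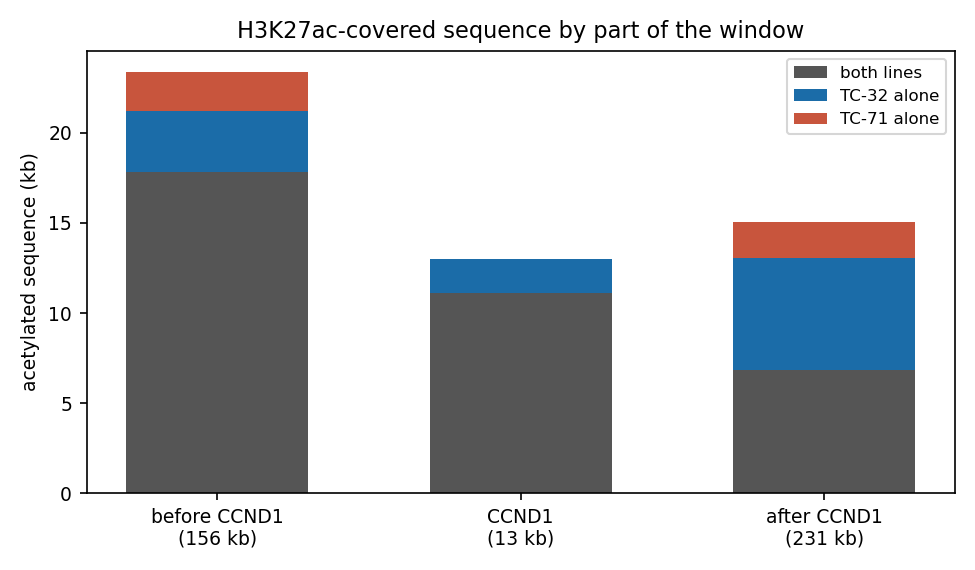
Acetylated sequence in kb (vertical axis) before, on and after CCND1 (horizontal axis, with the length of each part), stacked by whether both lines, TC-32 alone or TC-71 alone listed it. On the gene, 11.1 kb were listed in both lines, 1.90 kb in TC-32 alone and none in TC-71 alone.

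Domains found in 1 line ranked below the median of their list. The TC-32 domains without a TC-71 counterpart were at 69473554 to 69474125 (fold 2.58, percentile 1.68) and at 69497566 to 69498685 (fold 3.26, percentile 38.2). Those of TC-71 without a TC-32 counterpart were at 69414019 to 69415042 (fold 3.07, percentile 19.3) and 69475740 to 69476041 (fold 3.00, percentile 19.97). The acetylated sequence listed in TC-32 alone added up to 11.5 kb in 12 pieces of at most 1.92 kb, most of them at the edges of domains that both lines had or between them. That of TC-71 alone was 4.20 kb in 6 pieces of at most 1.67 kb.

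Stitching joined all domains of the window into a single cluster in each line, and this cluster ranked near the head of both lists. Domains closer together than the distance customary for super-enhancers, which lies between the alternatives of 5 and 20 kb, were joined, and clusters were put in order of their summed domain length times fold. Those from the tangent point of the rank curve upwards, the usual limit for super-enhancers, were called top clusters. The TC-32 cluster ran from 69426154 to 69498685, held 6 domains and ranked number 9 of 22370, where 901 (4.03%) were called top. The TC-71 cluster ran from 69414019 to 69490871, held 12 domains and ranked number 16 of 16831, where 670 (3.98%) were called top. On chromosome 11 it was number 1 of 907 clusters in TC-32 and number 2 of 737 in TC-71. Whether the ranks of the lines differ could not be tested.

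Each cluster stood well above the limit for a top cluster and ranked higher by length times fold than by length alone. Its summed length times fold was 357 in TC-32 and 272 in TC-71, with length in kb, which is 6.89 and 5.78 times the lowest top cluster and 53.0% and 43.9% of the highest cluster of the line. The spans were 72.5 kb and 76.9 kb, against medians of 29.8 kb and 25.7 kb over the top clusters. Acetylated sequence filled 65.2% of the span in TC-32 and 52.0% in TC-71. The domain over the gene alone supplied 66.1% of the sum in TC-32 and 59.5% in TC-71. When clusters were ranked by covered length in place of length times fold, the CCND1 cluster was number 34 in TC-32 and number 29 in TC-71, and by span it was number 55 and number 34.

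The neighbours in rank were close to it. In TC-32 the cluster directly above was at 17q21.32 (chromosome 17, 47055043 to 47121131), with a sum of 362 and 4 domains. Directly below was 12q13.13 (chromosome 12, 54348415 to 54431058), with 348 and 9 domains. In TC-71 the cluster above was at 1p13.3 (chromosome 1, 107682248 to 107821168), with 275 and 24 domains over 139 kb, and the one below at 13q21.31 (chromosome 13, 64618631 to 64705977), with 258 and 10 domains. The CCND1 cluster was a top cluster in both lines, as were 39.3% of all TC-32 top clusters and 53.9% of all TC-71 top clusters. It was also among the 20 highest of both lines, which held for 7 of the 20 highest clusters of each.

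**Figure D3:**
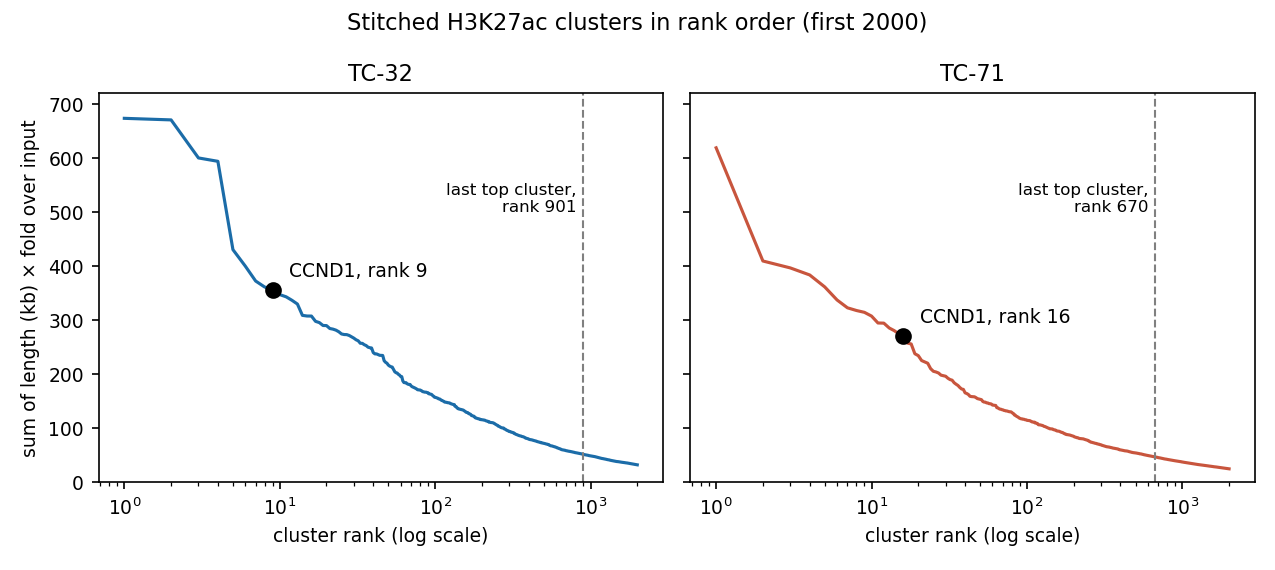
Sum of domain length in kb times fold over input (vertical axis) of the first 2000 stitched H3K27ac clusters of each line against their rank (horizontal axis, log scale). The point marks the cluster holding CCND1, at rank 9 in TC-32 and rank 16 in TC-71, and the dashed line the last cluster called top (ranks 901 and 670).

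The cluster depended on small gaps. The largest distance between consecutive domains was 9.10 kb in TC-32 and 11.2 kb in TC-71. In TC-71 that gap followed the first domain (69414019 to 69415042, percentile 19.3), which set the start of the cluster. With stitching at 5 kb the cluster fell into 4 clusters in each line. The cluster holding the gene then spanned 25.4 kb and ranked number 23 in TC-32, and 26.7 kb and number 22 in TC-71. It was called top in the 11 alternatives run that could change its rank.

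No other domain was listed in the window. The nearest domain before the window was the same in both lines, at 69257813 to 69258755 in TC-32 (fold 3.57) and 69257875 to 69258681 in TC-71 (fold 2.94), 197 kb before CCND1 and 41.2 and 41.3 kb outside the window. After the window the next was at 70049003 to 70051190 in TC-32 (fold 7.14) and 70049029 to 70050641 in TC-71 (fold 7.08), both about 580 kb past the gene. The first and last domains inside the window were those at the ends of the clusters.

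Cohesin peaks were more numerous around CCND1 than in most of the genome, with 15 SMC1 peaks in TC-32 and 7 in TC-71. This is 37.5 and 17.5 per Mb, against 10.8 and 6.02 per Mb over each list, and 36 of the 7573 windows held more in TC-32 and 295 in TC-71. The median window held 4 and 2. In TC-32 13 of the 15 peaks lay within 10 kb of another, with a smallest gap of 0.087 kb. In TC-71 2 of 7 did, with a smallest gap of 1.84 kb. The counts are thus of listed peaks and not of separate cohesin sites. The peaks did not rank high: their median percentile was 29.7 in TC-32 and 27.9 in TC-71, and only 1 of the 22 was in the highest quartile of its list.

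Most sites of TC-71 were also sites of TC-32. Of the 7 TC-71 peaks, 6 overlapped a TC-32 peak (85.7%, 42.1 to 99.6%), with 90.3% over the whole TC-71 list. Of the 15 TC-32 peaks, 6 overlapped a TC-71 peak (40.0%, 16.3 to 67.7%), with 50.3% over the whole TC-32 list. Both shares are close to those of the lists. The summits of the 6 common sites lay 4 to 35 bp apart in the lines.

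The first common site lay before the gene, inside the wide domain there. It was at 69437040 to 69437350 in TC-32, 18.8 kb before CCND1, with a fold of 7.02 at percentile 61.8. In TC-71 it was at 69437132 to 69437354, with a fold of 3.54 at percentile 5.08. It lay in an H3K27ac domain in both lines.

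The second lay 29.2 kb after the start of CCND1, inside the acetylated stretch past the gene. In TC-32 it was at 69484996 to 69485300 and was the highest-ranked SMC1 peak of the window (fold 8.90, −log10 q 36.3, percentile 75.7). In TC-71 it was at 69485092 to 69485217 and was the lowest-ranked of the 7 (fold 3.14, −log10 q 3.99, percentile 3.88). The acetylated sites thus had the lowest ranks of the window in TC-71, while in TC-32 both were above the median of the list.

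The other 4 common sites lay outside the acetylated domains of both lines, all after the gene. A pair stood 42.8 and 44.8 kb from the start of CCND1. Its first member was at 69498695 to 69498943 in TC-32 (fold 7.29, percentile 63.3) and 69498753 to 69498937 in TC-71 (fold 5.36, percentile 27.9). Its second was at 69500727 to 69500975 in TC-32 (fold 7.47, percentile 58.1) and 69500779 to 69500923 in TC-71 (fold 5.42, percentile 38.2). The TC-32 cluster ended 10 bp before the first of the pair, whereas the nearest TC-71 domain was 7.88 kb away. That TC-32 end was set by the domain at 69497566 to 69498685, listed in TC-32 alone (−log10 q 4.62, percentile 38.2). At a −log10 q of at least 5 this domain is left out. The TC-32 cluster then spans 64.6 kb and ends at 69490792. The TC-71 end at 69490871 is that of the full list. At the same threshold the TC-71 cluster holding CCND1 spans 33.6 kb and ends at 69465895. The TC-71 domains left after the gene then form a separate cluster. With the full lists, the cluster began 9.92 kb before the first SMC1 peak in TC-32 and 23.1 kb before it in TC-71.

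The remaining common sites were isolated. At 77.1 kb from the start of CCND1, the peak at 69532989 to 69533248 in TC-32 (fold 10.3, percentile 71.2) had the highest SMC1 fold of the window in that line. Its TC-71 counterpart at 69533030 to 69533186 had a fold of 5.81 at percentile 30.2. At 160 kb, the peak at 69616371 to 69616613 in TC-32 (fold 8.001, percentile 50.8) was matched by 69616405 to 69616578 in TC-71 (fold 9.03, percentile 67.2). This last site, the farthest from the gene, was the only 1 of the 6 with a higher percentile in TC-71 than in TC-32, and the highest-ranked SMC1 peak of TC-71 in the window.

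Beyond the window the next cohesin sites were again common to both lines. Just past the far edge, 3.32 kb outside, lay 69703320 to 69703646 in TC-32 (fold 10.4, percentile 83.4) and 69703408 to 69703600 in TC-71 (fold 9.16, percentile 84.8). On the near side the closest was 396 kb before CCND1, at 69059919 to 69060103 in TC-32 (fold 6.80) and 69059949 to 69060080 in TC-71 (fold 4.88). None of these lay in a listed domain, and no SMC1 peak of either line lay between that site and the first one before the gene. Loops were not measured, so which of these sites contact each other was not tested.

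**Figure D4:**
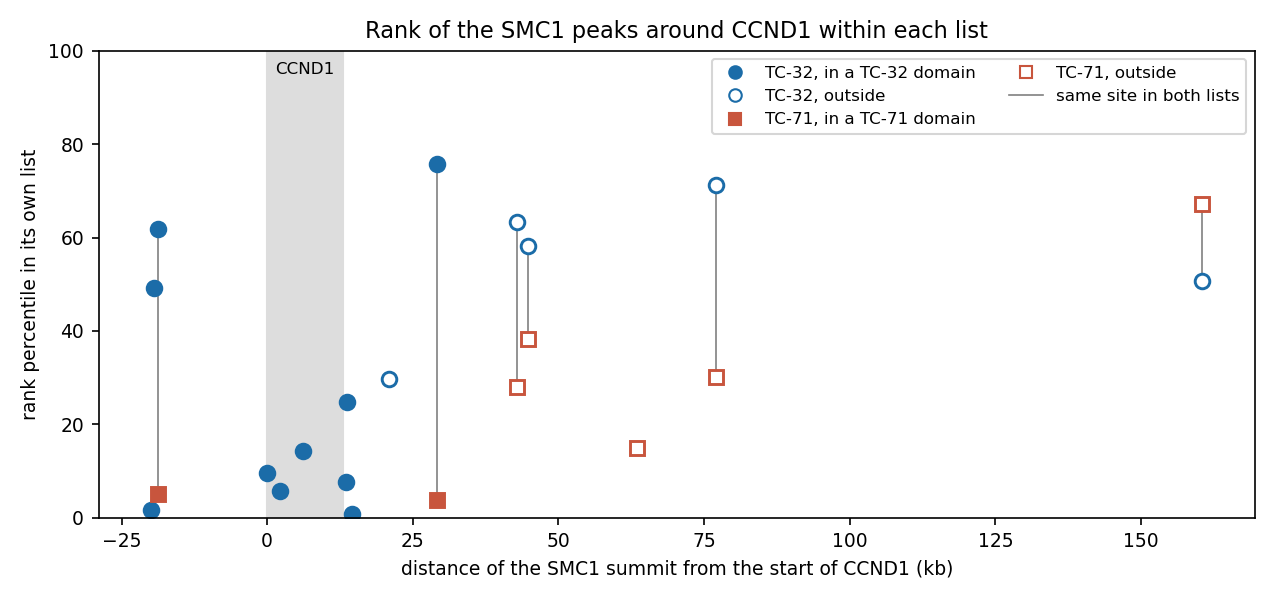
Rank percentile of each SMC1 peak within its own list (vertical axis) against the distance of its summit from the start of CCND1 in kb (horizontal axis); filled marks lie in an H3K27ac domain of the same line, and grey lines join the 6 sites listed in both lines. On and next to the gene (grey band) TC-32 lists peaks below percentile 25 and TC-71 lists none.

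On the gene itself SMC1 was listed in TC-32 alone, at low rank. A peak at 69455828 to 69456052 covered the gene's start (fold 3.15, −log10 q 4.81, percentile 9.64). Within the gene lay 69458155 to 69458568 (fold 3.07, percentile 5.64), which has 2 summits, and 69462094 to 69462233 (fold 3.92, percentile 14.4). A group of 3 more followed within 2 kb after the gene's end. These were at 69469380 to 69469553 (fold 3.38), 69469676 to 69469965 (fold 4.35) and 69470406 to 69470716 (fold 2.84), at percentiles 7.76, 24.7 and 0.847. All 6 lay in the TC-32 domain over the gene, and in TC-71 domains as well, where the nearest SMC1 peak was at least 14.4 kb away. At a −log10 q of at least 5 only the peaks at 69462094 and 69469676 are left of these 6.

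The gene's domain in TC-32 thus held 6 SMC1 peaks and the one in TC-71 none. Of all 36355 TC-32 domains, 13 held 6 or more. The gene's domain was also number 36 of them by width, and counts per kb of domain are not given here. Among domains of at least 10 kb, 75.9% held an SMC1 peak in TC-32 and 41.1% in TC-71; this width was chosen after the values were seen. The whole cluster held 11 SMC1 peaks in TC-32 and 2 in TC-71. The median top cluster held 2 and 1. In TC-32, 4 of the 901 top clusters, this one included, held 11 or more, and in TC-71, 133 of the 670 held 2 or more. The cluster is also longer than most, its span of 72.5 kb in TC-32 standing against a median of 29.8 kb among top clusters. Per 10 kb of span it held 1.52 SMC1 peaks in TC-32 (median of top clusters 0.594), and 102 top clusters (11.3%) were denser. In TC-71 it held 0.260 per 10 kb (median 0.214), and 299 (44.6%) were denser. The TC-71 list is shorter, and when the TC-32 list was shortened to the same length by −log10 p, 7 of its 15 peaks in the window and 3 of the 11 in the cluster were left. None of those left lay on the gene or in its domain.

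Before the gene TC-32 listed a pair of peaks beside the first common site that TC-71 lacked. The wider, 69436319 to 69436848, was 530 bp long with 2 summits and had the highest rank of any SMC1 member without a TC-71 counterpart (fold 5.94, −log10 q 17.0, percentile 49.3). The other, 69436075 to 69436231, was weak (fold 3.10, percentile 1.62). The only TC-32 peak without a counterpart that lay outside acetylation was at 69476857 to 69477009 (fold 4.80, percentile 29.7), 2.73 kb from the nearest domain. TC-71 had 1 peak of its own, at 69519453 to 69519578 (fold 4.91, percentile 14.9), 63.5 kb from the start of CCND1 and 13.4 kb from the nearest TC-32 peak.

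Rank separated the TC-32 peaks that TC-71 shared from those it did not. The 6 common ones stood between percentiles 50.8 and 75.7 and the 9 others between 0.847 and 49.3. By rank quartile, from the highest, 1 of 1, 5 of 5, 0 of 2 and 0 of 7 members were listed in TC-71, against 91.4%, 65.3%, 33.7% and 10.8% of the whole TC-32 list. With both lists at equal length 6 of 7 TC-32 members were common. The share over the whole TC-32 list at that length is not given here, so this count does not set the window apart.

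With the full lists, most TC-32 SMC1 peaks of the window lay in acetylated domains. Of the 15 TC-32 peaks, 10 lay in a TC-32 domain (66.7%, 38.4 to 88.2%), against 25.9% of the list. In TC-71 2 of 7 did (28.6%, 3.67 to 70.96%), against 13.6% of the list, and both had a −log10 q under 5. At a −log10 q of at least 5, 5 of 10 TC-32 peaks (50%) and 0 of 5 TC-71 peaks lay in a domain. Shares over the whole lists at that threshold are not given here. The peaks of the window are neighbours on the same stretch and not independent draws. The window also holds a large domain, so no test was made. Of the 9 TC-32 peaks without a TC-71 counterpart 8 lay in a TC-32 domain, against 36.5% of such peaks over the list. All 7 of those in the lowest rank quartile did, against 50.6% over the list. Of the 6 with a counterpart 2 did, against 15.4%. Seen from the domains, 3 of 6 in TC-32 held an SMC1 peak, with 19.1% over the list, and 2 of 12 in TC-71, with 8.84% over the list.

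BORIS was not listed at CCND1 in either line. The TC-71 list holds 534 BORIS peaks, or 0.176 per Mb, of which 28 are on chromosome 11, and the TC-32 list holds 6, of which 1 is. The nearest TC-71 BORIS peaks were 3.32 Mb before the gene, at 66131485 to 66131631 in 11q13.2 (fold 4.78), and 2.66 Mb after it, at 72125308 to 72125455 in 11q13.4 (fold 4.83). Both lay at a TC-71 SMC1 peak and in no H3K27ac domain of either line. The nearest in TC-32 was 6.85 Mb before the gene, at 62609088 to 62609252 in 11q12.3 (fold 2.85). It lay in an H3K27ac domain and at an SMC1 peak of both lines. At the mean density of the TC-71 list most windows of this size hold no BORIS peak, and 6.12% of the 670 TC-71 top clusters held 1 or more. The absence of a listed peak shows only that none passed the authors' threshold in the lists used.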

How the data were processed

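The authors deposited 1 peak list per line and antibody: narrow peaks with a summit for BORIS and SMC1, broad domains for H3K27ac. For each peak the deposited lists hold a score, a fold enrichment over input (a ratio), and −log10 values of p and of q. The tools named in the submitters' processing notes are MACS2 2.1.1, STAR 2.5.1b, deepTools 2.2.4, SAMtools 1.3.1 and Picard, with the build hg19. Their settings, and how the samples of a group were joined, are not given in the labels. List length grows with sequencing depth and enrichment.

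Intervals with several summits were kept once, with the values of the summit of highest −log10 q, on chromosomes 1 to 22 and X. Coordinates are hg19, counted from 1. An overlap needed at least 1 bp. Chromosome lengths are from GenomeInfoDb 1.38.1 and bands from circlize 0.4.16. Intervals of shares are exact binomial (95%) and cover counting error only. Peaks were named by a rule on position, rank and line, which covers nearly every member. The window, lists and rules were chosen with earlier results of these data known. The alternatives tried were a stricter threshold (−log10 q of 5 or more), a wider window, peaks wholly inside it, 50% coverage, summits within 500 bp, lists cut to equal length by −log10 p, stitching at 5 or 20 kb, and ranking by covered length or by span. The overlap and stitching code was tested on simulated intervals. The planned description of promoter motifs was not run. Computing used Python 3.11.15 (pandas 2.3.3, numpy 2.4.6, scipy 1.17.1) and plots matplotlib 3.10.9.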

Additional observations from a re-analysis of the deposited data

How the results depend on the processing

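No paired analysis was possible because both samples of a group share 1 list, which also prevented leaving out a sample. Of the 61 values recomputed under a setting that could move them, 48 kept within the interval of the share reported, or within 1.5 times the count, rank or length reported, and 13 moved. Another 7 could not differ and are not counted: 4 BORIS counts of 0 under stricter rules, and 3 TC-71 values with lists of equal length, where the TC-71 list is the shorter one. The interval of a share is wide at so few members, so keeping within it says little. For TC-71 domains listed in TC-32 it was 51.6 to 97.9%. That share fell from 83.3% to 58.3% at 50% coverage and still counted as kept. The CCND1 cluster was a top cluster in the 11 alternatives that could change its rank. Its rank in TC-32 was 23 with stitching at 5 kb, 20 at 20 kb, 34 by covered length and 55 by span. In TC-71 it was 29 by covered length and 34 by span. Its span was 25.4 kb in TC-32 and 26.7 kb in TC-71 with stitching at 5 kb, where fewer domains are joined, and 33.6 kb in TC-71 at a −log10 q of 5 or more. That threshold left 4 TC-71 domains, of which 100% were listed in TC-32, and put 0% of the 5 TC-71 SMC1 peaks it left in a domain. With lists of equal length 85.7% of the 7 TC-32 SMC1 peaks left were listed in TC-71, since the cut takes the low-ranked peaks of TC-32 alone. Shares over the whole lists at these settings are not given here, so these values do not set the window apart from the lists. The unknown depth of the libraries limits what the shorter TC-71 SMC1 list can show at the gene.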
